A study of Mus musculus with 20 samples.

Results

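GPS2 ChIP-seq tags of wild-type and GPS2 knockout brown adipose tissue (BAT) were set against each other, peak by peak, in 2 deposited HOMER peak lists. The members are all peaks of these lists on chromosomes 1 to 19: 18722 in the list labelled female and 39649 in the list labelled male, 58371 of the 164307 peaks in the 4 GPS2 lists of the series. They were taken by file and chromosome alone. Each list had been called on 1 wild-type library against 1 knockout library of the same labelled sex, so the 4 libraries form 2 pairs that share no library. All peaks had to exceed the knockout at least 2-fold to enter a list. That wild type was higher than knockout is therefore a condition of membership and not a result, and no test of it is given.

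GPS2 (G protein pathway suppressor 2) is a small protein found in corepressor complexes built on N-CoR or SMRT. Nuclear receptors and other transcription factors bring these complexes, with their histone deacetylase HDAC3, to chromatin. GPS2 also acts outside the nucleus, where it restrains ubiquitin signalling, and it has been described on mitochondria. Brown adipose tissue is rich in mitochondria and burns fuel to make heat. In a ChIP-seq experiment, a knockout tissue treated with the same antibody shows how much of the signal at a place does not need the target protein.

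The wild-type and knockout mice were kept on a mixed 129sv/C57BL6J background. The knockout carried floxed Gps2 alleles deleted by Adipoq-Cre, whose adiponectin promoter is active in adipocytes. Other cells of the tissue, such as those of vessels, nerves and the immune system, are not expected to carry the deletion, so the tissue named knockout still holds cells with GPS2. No expression data of these tissues were used, so the tissue and the deletion were not checked against marker genes, and the labels of the GPS2 libraries name no antibody. Tissue was minced, crosslinked with formaldehyde and sonicated before immunoprecipitation. The sample labels give 1 pair as female and 1 as male, whereas the growth protocol speaks of male mice only, so "female" and "male" here stand for the labels. Neither the age of the animals nor the number pooled in a library was stated in the sources used here. Peak positions are on mm8. No genome or gene annotation of that build was used, so peaks are named by position without genes or sequences.

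The female wild-type library held 39310667 tags and the male 30069322, per the file headers. The scaling of the deposited columns gave estimates of 36385061 tags for the female and 44327130 for the male knockout library. The knockout was thus sequenced 0.926 times as deeply as the wild type in the female pair and 1.47 times as deeply in the male pair. At these depths a window of peak size holds 2.71 wild-type and 2.51 knockout tags on average in the female pair, and 2.03 and 2.99 in the male pair, over the genome size of 2000000000 bp given in the headers. Before any comparison with knockout there were 205727 putative female and 277145 putative male peaks. Of these, 33752 (16.4%) and 67736 (24.4%) passed the knockout rule, which asked for at least 2-fold and a Poisson p-value of at most 0.0001. At most places where a wild-type library rose above the threshold of its false discovery rate, the knockout library was thus too high, or the tags too few, to pass.

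Peaks were low in both pairs. A female peak held a median of 13 wild-type tags (quartiles 11 and 15) and 2 knockout tags (1 and 3), and a male peak 13 wild-type tags (11 and 16) and 3 knockout tags (2 and 5). The knockout library had no tag at 1652 female peaks (8.82%, Wilson 95% interval 8.43 to 9.24) and at 1345 male peaks (3.39%, 3.22 to 3.58). These shares are not comparable between the pairs, because the male knockout library was deeper. With 0 tags in a peak, the knockout level may be up to 3 tags. Intervals and limits here cover counting error only and treat tags as independent.

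The fold over knockout is the ratio of wild-type to knockout tags after scaling to equal depth, with 0 knockout tags counted as 1. Its median was 6.02 in the female list (quartiles 4.63 and 9.26) and 5.41 in the male list (4.18 and 8.11). A peak with the median tags of both libraries carries a wide counting error: 13 against 2 tags in the female pair gives 6.02-fold with an exact 95% interval of 1.36 to 54.9, and 13 against 3 in the male pair 6.39-fold (1.76 to 34.95). Folds of single peaks of this height thus cannot be ranked. At least 4-fold was reached by 17099 of 18722 female peaks (91.3%) and 30991 of 39649 male peaks (78.2%), and at least 8-fold by 6812 (36.4%) and 9959 (25.1%). Few peaks lay near the limit of the call: 1 female and 20 male peaks were under 2.1-fold, and 23 and 256 under 2.5-fold. The p-value of the call sets much of this, since it keeps such folds out at low tag counts. No female peak with up to 28 wild-type tags and no male peak with up to 24 was under 2.5-fold. Just inside the limit were a male peak of 2.00-fold and a female peak of 2.08-fold. The places just outside it are not in the lists. Summed over all peaks, wild-type tags exceeded knockout tags 4.95-fold in the female and 4.93-fold in the male pair. Knockout tags made up 16.8% and 16.9% of the scaled tags in peaks. The closeness of these sums depends on a few tall female peaks. The 100 female peaks above 100 wild-type tags held 293.3 knockout tags on average. Without peaks of at least 100 normalized tags, the knockout share was 14.6% in the female and 16.8% in the male list.

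**Figure D1:**
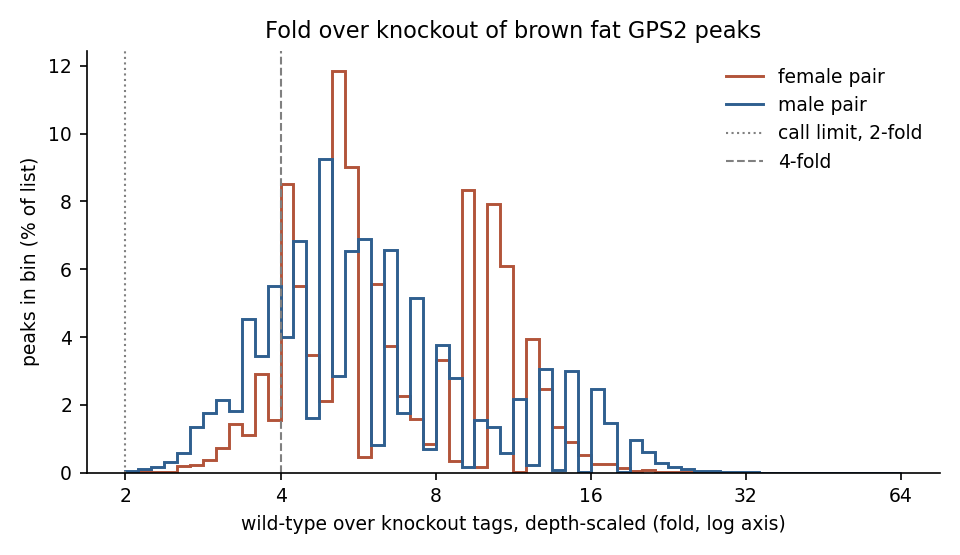
Fold of wild-type over knockout tags (log axis) of every peak on chromosomes 1 to 19, as the share of each list per bin; the dotted line is the 2-fold limit of the call and the dashed line 4-fold. Both lists are almost empty next to the limit, where the p-value of the call admits only taller peaks. Their medians are 6.02 (female) and 5.41 (male), and the comb-like steps come from ratios of small whole tag counts.

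How many knockout tags a peak can have was set by its wild-type tags through the p-value of the call, and this limit was tighter than 2-fold for low peaks. Female peaks with exactly 13 wild-type tags had 0 to 3 knockout tags, so that the lowest fold among these 3069 peaks was 4.01. Male peaks with 13 wild-type tags had 0 to 5, and the lowest fold of these 4307 peaks was 3.83. No female peak with up to 15 wild-type tags and no male peak with up to 12 was under 4-fold. These low peaks were 14362 (76.7%) of the female and 18027 (45.5%) of the male list, and reaching 4-fold says nothing about them. Above these heights, where folds on both sides of 4 occurred, 2737 of 4360 female peaks (62.8%, 61.3 to 64.2) and 12964 of 21622 male peaks (60.0%, 59.3 to 60.6) were at least 4-fold. The gap between 91.3% and 78.2% over whole lists was thus much smaller among peaks that could fall on either side, although these begin at different heights in the 2 lists. In each class above 12 wild-type tags the female share was the higher one, but the call and the depth of the knockout fix part of this. At 13 to 15 wild-type tags the lowest fold was 4.01 in the female and 3.44 in the male list. With 1 tag added to both libraries the order over whole lists turned, at 61.9% in the female and 62.3% in the male list.

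Taller peaks had lower folds in both pairs, and the call fixes part of this, because its p-value lets lower folds in as tags rise. The lowest fold among female peaks was 3.09 at 16 to 20 wild-type tags, 2.44 at 21 to 30 and 2.11 at 31 to 100, and among male peaks 2.80, 2.21 and 2.00. The shares and medians by height are therefore descriptions of the lists. In classes of wild-type tags chosen after the values were seen, the share at least 4-fold was 66.6% in the female and 53.6% in the male list at 16 to 20 wild-type tags, 56.0% and 37.5% at 21 to 30 tags, and 49.3% and 31.4% at 31 to 100 tags. The median fold went from 4.94 and 4.18 at 16 to 20 tags to 3.81 and 3.26 at 31 to 100 tags. Above 100 tags it was 3.28 over 100 female peaks and 2.41 over 29 male peaks, of which 13 and 0 were at least 4-fold. The class above 100 tags differs between the lists in shape as well. Of the 100 female peaks, 78 overlapped a GPS2 peak of 3T3-L1 cells, and of the 29 male peaks 9. Over the whole lists 1096 of 18722 female and 2009 of 39649 male peaks did. Female peaks of the class stood a median of 153.8-fold over the surrounding region and male peaks 5.54-fold. HOMER's score, which is drawn from at most 1 tag per base pair, was 0.124 times the tag count in the female class and 0.625 times in the male class.

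**Figure D2:**
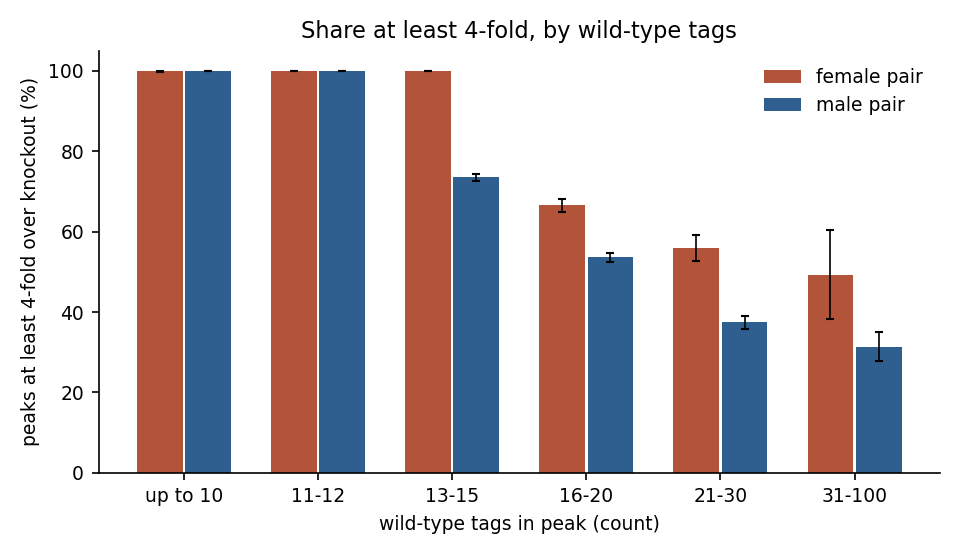
Share of peaks at least 4-fold over knockout (y axis, percent) in classes of wild-type tags (x axis), for the female and the male pair; bars are shares and error bars Wilson 95% intervals, which cover counting error only. The share is 100% in the lowest classes of both lists, where the call allows no other value, and is 49.3% (female) and 31.4% (male) at 31 to 100 tags.

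The knockout libraries were above their own genome average at taller peaks, although the call could only lower them there. Mean knockout tags at female peaks were 0.732 at up to 10 wild-type tags, 3.15 at 16 to 20, 5.04 at 21 to 30 and 9.43 at 31 to 100. Against the average of 2.51 tags this is 0.292, 1.25, 2.01 and 3.75 times. In the male pair the means were 1.79, 5.98, 9.63 and 16.5, or 0.598, 2.00, 3.22 and 5.52 times the average of 2.99. Values below the average in the lowest class follow from the call, which allows at most 1 female or 3 male knockout tags there. Values above it in taller classes do not, since the call sets only an upper limit. Knockout tags were at or above 2 times the average at 602 female peaks (3.22%) and 9451 male peaks (23.8%). These shares are not comparable between the pairs, because the male knockout library was deeper and the call set different limits. A count of 6 knockout tags first occurred at 20 wild-type tags in the female list and at 14 in the male list. The source of this knockout signal was not tested, and the input DNA libraries of the series were not analysed here.

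**Figure D3:**
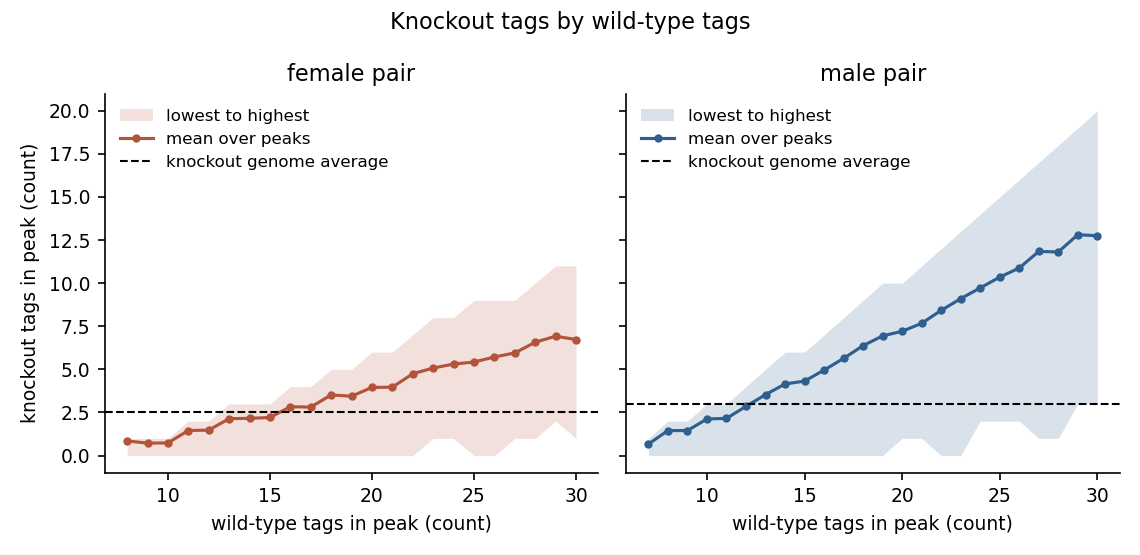
Knockout tags (y axis, counts) at peaks with a given number of wild-type tags (x axis, counts), for counts with at least 10 peaks and up to 30 tags; points are means over peaks, the shaded band runs from the lowest to the highest peak and the dashed line is the genome average of the knockout library. Means rise with wild-type tags in both pairs and cross the average (2.51 and 2.99 tags) at middle heights, while the upper edge of the band is the limit that the call sets.

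Peak shape and surroundings went with little change in the knockout once height was held, but the call leaves little room for change there. At 13 to 15 wild-type tags the highest knockout count was 3 in the female and 6 in the male list. At 16 to 20 tags it was 6 and 10. The call also asked for 2-fold over the surroundings, so similar means are partly set by it. Among female peaks of 13 to 20 wild-type tags, mean knockout tags were 2.46, 2.46, 2.55 and 2.52 over 4 groups of equal size, from the lowest to the highest fold over the surrounding 10000 bp. Among male peaks they were 4.90, 4.75, 4.74 and 4.68. For the focus ratio, the share of tags placed as a single point source would place them, they were 2.53, 2.54, 2.51 and 2.41 in the female list. In the male list they were 5.11, 4.86, 4.64 and 4.45, while mean wild-type tags also went from 15.7 to 15.0. More sharply focused male peaks thus had somewhat fewer knockout tags, but they were also slightly lower, and no such order was seen over the first 3 female groups.

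The share of peaks at least 4-fold differed between chromosomes in a similar order in both pairs, but the call fixes part of this through peak height. Every female peak with up to 15 wild-type tags and every male peak with up to 12 was at least 4-fold. A chromosome with more low peaks thus has a higher share by the call, and the order is not a separate sign that folds recur. It ran from 88.7% on chromosome 17 to 93.6% on chromosome 13 in the female list, and from 73.3% on chromosome 19 to 81.2% on chromosome 13 in the male list. Spearman's rho between the lists was 0.661 over 19 chromosomes. Peak height varied with it: the share of peaks with 16 or more wild-type tags ran from 17.5% to 31.1% in the female list, highest on chromosome 11, and from 22.9% to 36.1% in the male list, also highest on chromosome 11. Across chromosomes, this share and the share at least 4-fold had a rho of -0.825 in the female and -0.993 in the male list. At 13 to 20 wild-type tags, mean knockout tags per chromosome stayed within 2.35 to 2.62 in the female and 4.62 to 4.91 in the male pair, with a rho of 0.219 between the lists. These correlations are descriptions over chromosomes that share their libraries.

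A peak of both lists at one place gives 2 separate measurements of wild type against knockout. There were 1426 such pairs of peaks sharing at least 1 bp, 7.62% of the female and 3.60% of the male peaks. Tags of the other pair of libraries are given only where that pair had a peak of its own, so nothing is known of the remaining places there. The female peaks of these pairs held a median of 16 wild-type tags and 3 knockout tags and were 5.09-fold over knockout (quartiles 4.01 and 7.87). The male peaks held 20 and 8 tags and were 3.81-fold (3.10 and 4.91). In the female list 1111 of 1426 (77.9%, 75.7 to 80.0) were at least 4-fold, and in the male list 632 (44.3%, 41.8 to 46.9), both below the 91.3% and 78.2% of the whole lists. These peaks were taller than the rest. At 555 pairs (38.9%, 36.4 to 41.5) the fold was at least 4 in both lists, and at 238 (16.7%) it was under 4 in both. Of the 1111 pairs at least 4-fold in the female list, 49.95% were so in the male list, against 24.4% of the other 315. The call fixes part of this split through peak height. No female peak with up to 15 wild-type tags and no male peak with up to 12 was under 4-fold. The split is therefore not a separate sign that folds recur.

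The amount of signal was more alike between the pairs than the fold. Over the 1426 places, Spearman's rho was 0.657 for wild-type tags, 0.461 for knockout tags and 0.177 for the fold over knockout. The call caps knockout tags by wild-type tags, so shared height alone can give a rho for knockout tags. The fold is a ratio of low counts, and counting error lowers its rho. The order of these values is therefore a description and does not show that knockout signal recurs more than the fold. Leaving out the 4 places with at least 100 normalized tags in either list gave 0.654, 0.457 and 0.175. Once a peak's knockout tags were ranked among the peaks of its own list with the same wild-type tags, the rho between the lists was -0.0319 over 1344 pairs. These ranks needed at least 20 peaks with the same wild-type count, so the other places, mostly tall ones and among them those on chromosome 6 given below, had no rank. Among the ranked places, which peaks had much or little knockout signal for their height was not seen to be shared between the pairs at these tag counts. The knockout was above its genome average at 827 female peaks of these pairs (58.0%) and 1331 male peaks (93.3%), and at 802 places (56.2%) in both. Over the whole lists, whose peaks were lower, these shares were 32.45% in the female and 65.89% in the male list. The call admits more knockout tags at taller peaks, so the higher shares are not a separate trait of these places. The knockout had 0 tags at 55 female and 5 male peaks of the pairs, and at 1 place in both.

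**Figure D4:**
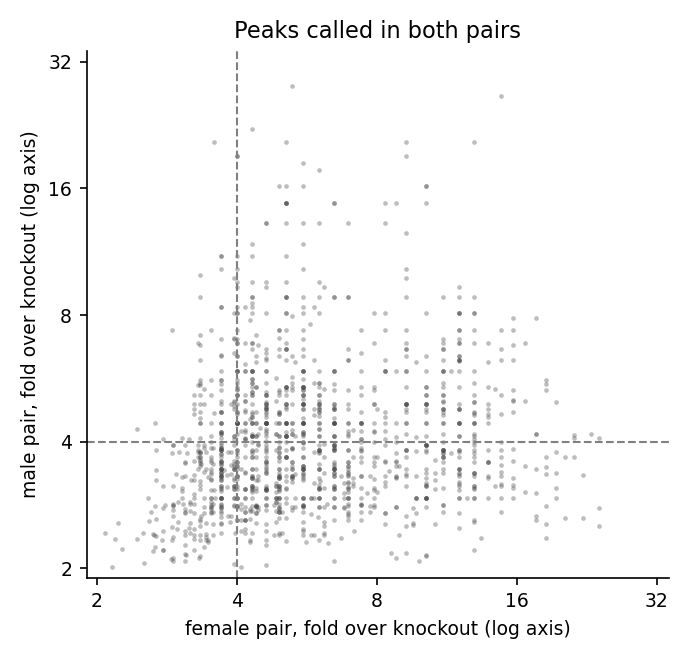
Fold over knockout in the female pair (x axis, log) against the male pair (y axis, log) at 1426 places with a peak in both lists; each point is a place and dashed lines mark 4-fold. Points fill the plane with little order (Spearman's rho 0.177), and 555 of them lie in the upper right part, at least 4-fold in both pairs.

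Among the 1155 of these places whose peaks had at least the median height in both lists, 5 were taken for the largest smaller fold with 0 knockout tags counted as 1. They are examples, since tag counts this low do not fix their order, and the first would come after the fifth with 0 counted as 3 tags. At chr10:77765292-77765430 the female libraries had 16 wild-type and 0 knockout tags and the male libraries 18 and 1. Against 3 tags as the limit for a count of 0 the female fold was at least 4.94, the exact 95% interval, which also covers the wild-type count, began at 3.57, and the male fold was 26.5 (exact 95% interval 4.19 to 1106). At chr7:141095924-141096062 there were 14 and 1 female tags and 14 and 1 male tags, which is 12.96-fold (1.97 to 547.9) and 20.6-fold (3.14 to 872.7). At chr19:14665637-14665775 the female libraries had 13 and 1 tags (12.03-fold) and the male 19 and 3 (9.34-fold). At chr4:120323283-120323421 they had 19 and 2 (8.79-fold) and 20 and 2 (14.7-fold). At chr10:17559518-17559656 they had 17 and 2 (7.87-fold, 1.87 to 70.2) and 22 and 4 (8.11-fold, 2.75 to 32.4). All 10 intervals lay above 1, as the call required, and they are not adjusted for the choice of extremes. Both knockout libraries were thus at 0 to 4 tags at each of these places.

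Of the 5 places with the smallest larger fold, 4 lay close together on chromosome 6. That they are taller than the places above follows from the call, which admits such small folds only at high tag counts. At chr6:47597626-47597764 the female libraries had 151 wild-type and 65 knockout tags (2.15-fold, 1.60 to 2.92) and the male libraries 148 and 108 (2.02-fold, 1.57 to 2.61). At chr6:47682432-47682570 they had 149 and 61 (2.26-fold) and 178 and 118 (2.22-fold). At chr6:47692905-47693043 they had 132 and 56 (2.18-fold) and 175 and 110 (2.35-fold), and at chr6:47588941-47589079 126 and 56 (2.08-fold) and 170 and 103 (2.43-fold). At the fifth, chr13:43875686-43875824, the female libraries had 29 and 11 tags (2.44-fold, 1.18 to 5.41) and the male 35 and 22 (2.35-fold, 1.34 to 4.20). Knockout tags at the chromosome 6 places were thus far above the genome average in both knockout libraries, which average 2.51 and 2.99 tags per peak window. These peaks stood 3.30 to 4.19-fold over their surroundings in the female list and 3.88 to 5.54-fold in the male list. The wild-type level around them was thus also above its genome average. The knockout level around them is not known, so the excess cannot be placed at the peaks alone.

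Peaks that also had a GPS2 peak in 3T3-L1 cells, a mouse preadipocyte line, held more knockout tags than others of the same height in both pairs at 16 to 30 wild-type tags. Such a peak in at least 1 of the cell lists, with or without the mitochondrial uncoupler FCCP, was found at 1096 female and 2009 male BAT peaks. The cell lists were called on pooled libraries without a control library and did not enter the call of the tissue peaks. At 16 to 30 wild-type tags, 274 female peaks with a 3T3-L1 peak had 4.23 knockout tags on average, against 3.78 at others with exactly the same wild-type counts, a ratio of 1.12 (exact Poisson 95% interval 1.06 to 1.19). In the male pair 562 such peaks had 8.53 against 7.65, a ratio of 1.11 (1.08 to 1.15). At up to 15 wild-type tags the ratio was 1.05 (0.995 to 1.12) over 720 female and 1.05 (1.02 to 1.09) over 1340 male peaks. At 21 to 30 tags, 38.8% of female peaks with a 3T3-L1 peak and 57.6% of those without were at least 4-fold, and in the male list 23.8% and 38.5%. At 16 to 20 tags these shares were 57.2% and 67.2% (female) and 41.8% and 54.2% (male). At 31 to 100 tags they were 41.7% and 52.9%, and 20.4% and 33.5%. Above 100 tags they were 12.8% and 13.6%, and 0% and 0%. Within classes heights were not exactly equal: at 21 to 30, mean wild-type tags were 24.1 and 23.5 (female), and 24.5 and 23.95 (male). These intervals cover the counting of tags only, and the comparison at equal wild-type counts was chosen after the values were seen.

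**Figure D5:**
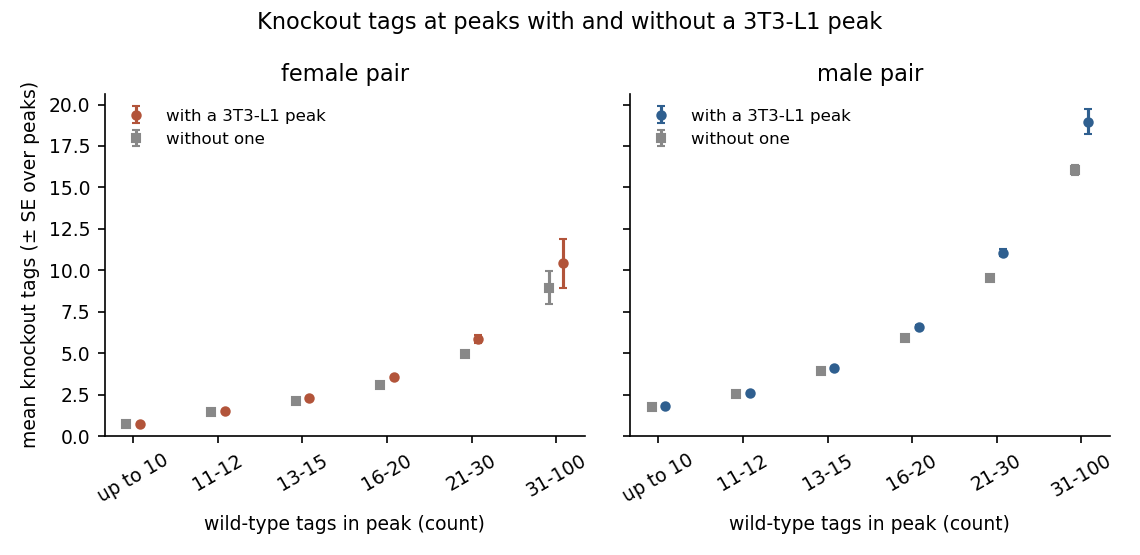
Mean knockout tags (y axis) in classes of wild-type tags (x axis) at BAT peaks with (circles) and without (squares) an overlapping 3T3-L1 GPS2 peak, for the female and the male pair; error bars are standard errors over peaks, which are not replicates. At 21 to 30 tags the means are 5.86 with and 4.96 without in the female pair, and 11.1 and 9.52 in the male pair.

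Peaks that recurred in the other BAT list had more knockout tags than others of the same height in the male pair. At 16 to 30 wild-type tags, 838 recurring male peaks had 8.85 knockout tags, against 8.11 at other male peaks with the same wild-type counts, a ratio of 1.09 (1.07 to 1.12). For 749 recurring female peaks the values were 3.77 and 3.86, a ratio of 0.977 (0.941 to 1.01). At up to 15 tags the ratios were 1.09 (1.04 to 1.16) in the male and 0.995 (0.938 to 1.06) in the female pair. The female intervals include 1. The difference between the pairs was not tested, and with 1 library of each kind per pair the libraries and the sexes cannot be told apart.

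Of the 201 female peaks with at least 30 wild-type tags, the largest fold was at chr19:7008573-7008711, with 69 wild-type tags and 1 knockout tag (63.9-fold, 11.1 to 2559). It was followed by chr15:79373866-79374004 with 155 and 4 tags (35.9-fold, 13.7 to 133.3) and chr1:46798051-46798189 with 71 and 2 (32.9-fold, 8.77 to 276.6). The nearest male peaks lay 9406, 10693 and 481775 bp away, centre to centre, with 13, 10 and 11 wild-type tags. Of the 768 male peaks of this height, the largest folds were smaller: 15.2 (4.75 to 77.9) at chr2:172795866-172796000 with 31 and 3 tags, 14.7 at chr2:154287322-154287456 with 30 and 3, and 13.6 at chr5:145198315-145198449 with 37 and 4. Their nearest female peaks lay 10370, 30912 and 84676 bp away. None of these 6 peaks overlapped a peak of the other list, so the folds at these 6 places rest on 1 pair each.

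The highest knockout counts lay at peaks of low fold, below the lower quartile of 4.63 in the female and 4.18 in the male list. Part of this follows from the choice, since the fold is divided by knockout tags and the call admits such counts only at tall peaks. Above 100 wild-type tags the median fold was 3.28 in the female and 2.41 in the male list. In the female list they were 1863 tags at chr18:90736501-90736639 (6504 in wild type, 3.23-fold), 1345 at chr11:121798468-121798604 (4714, 3.24-fold) and 941 at chr5:152002930-152003060 (3547, 3.49-fold). The nearest male peaks lay 92475, 104798 and 299263 bp away. In the male list they were 1072 tags at chr9:95235259-95235393 (1541 in wild type, 2.12-fold), 446 at chr17:67646372-67646506 (650, 2.15-fold) and 287 at chr1:24566063-24566197 (516, 2.65-fold), and all 3 overlapped a female peak. The female peaks there had 1663 wild-type and 465 knockout tags, 610 and 182, and 290 and 45. Closest to the 2-fold limit among peaks of at least 30 wild-type tags were, in the male list, chr6:47592719-47592853 with 87 and 64 tags, chr6:47698739-47698873 with 56 and 41 and chr1:167596087-167596221 with 52 and 38. In the female list they were chr6:47588941-47589079, already given, chr5:22681175-22681313 with 41 and 18 and chr2:22440862-22441000 with 375 and 164. The lower ends of the intervals of these 6 folds ran from 1.18 to 1.76. That they lay below 2 follows from the choice of the folds nearest to 2.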

How the data were processed

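The members, lists and tests were chosen with earlier results of these data known. The classes of wild-type tags, the range of 13 to 20 tags and the comparison at equal tags were chosen after the values were seen. The submitters' processing notes name Bowtie2, HOMER and mm8, without versions. Per the file headers, the authors asked for a false discovery rate of 0.05, 2-fold over the knockout library, 2-fold over the surrounding 10000 bp and p-values of at most 0.0001, with at most 1 tag per base pair.

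Normalized tags, which set peak height, were deposited as a signal per 10000000 tags. The authors deposited male wild-type tags as a count, and female wild-type and male knockout tags as a signal scaled to the depth of the partner library, per the file headers. A knockout without tags was entered as 0.5 of a tag. Whole tags were recovered from these steps; all deposited values fitted a step of 0.926 (female) or 0.678 (male) within rounding to 1 decimal. Folds in the text come from these tags, except those over the surroundings, which are the authors' deposited ratio, as is the fraction called focus ratio. The deposited fold and p-value over knockout and the score entered as checks only.

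Each pair holds 1 library per genotype, and the call fixes the direction in both pairs, so no test between genotypes is given. The only check between libraries is the comparison of the pairs, which differ in labelled sex, at places in both lists. Wilson, exact binomial (ratios of tags) and exact Poisson intervals are at 95%. Peaks were named by rule: the 5 largest and 5 smallest folds at places in both lists, and in each list the 3 largest folds, 3 nearest to 2-fold (both from 30 wild-type tags) and 3 highest knockout counts. Tag recovery and overlaps were tested on simulated data. Software was SciPy 1.17.1, pandas 2.3.3, numpy 2.4.6 and matplotlib 3.10.9 under Python 3.11.15.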

Additional observations from a re-analysis of the deposited data

Results flagged for a closer look

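Peaks on the X chromosome, which entered no comparison, also exceeded the knockout library: their median fold was 8.33 over 399 female peaks and 7.37 over 324 male peaks, on lists that required at least 2-fold. They were lower peaks, with medians of 11 and 10 wild-type tags. At 13 to 20 wild-type tags, mean knockout tags were 2.40 at female X peaks and 2.498 over 9506 female autosomal peaks, and 3.80 over 51 male X peaks and 4.77 over 17557 male autosomal peaks. The median folds at this height went opposite ways, at 4.63 on X and 5.25 on autosomes in the female list, and 6.39 and 4.72 in the male list. None of these differences was tested.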

How the results depend on the processing

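With 1 tag added to both libraries, the median fold over knockout was 4.34 in the female and 4.33 in the male list, and 61.9% and 62.3% of peaks were at least 4-fold, so the gap between the lists depends on how low knockout counts enter. The next 2 alternatives were chosen after seeing the data. With 0 knockout tags set to 3, the female median was 5.55 with 84.9% at least 4-fold, and the male share was 77.6%. With HOMER's score in place of wild-type tags, the medians were 5.55 and 4.42 and the shares 84.95% and 61.5%, and 99.5% of female and 98.7% of male peaks still reached 2-fold. Peaks at least 4-fold over their surroundings gave a male median of 5.53 and share of 79.5%. Without peaks of at least 100 normalized tags, knockout tags were 14.6% (female) and 16.8% (male) of tags in peaks. The 20 other values under the alternatives, for both lists and for places in both, moved by less than their counting error or, for the number of places (1070 to 1627), by less than 1.5 times. No paired analysis was possible because no result comes from a test: the call fixes the direction in both pairs, and the labels give no replicate numbers. Depth limits single peaks, as the intervals at the median height show (1.36 to 54.9 and 1.76 to 34.95).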
